A study of Schizosaccharomyces pombe with 6 samples.

Results

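The genes described here are 10 genes of fission yeast (*Schizosaccharomyces pombe*) whose products build heterochromatin or run RNA interference. They are clr1, clr2 and clr3 of the SHREC complex, clr4, swi6 and chp2 of histone H3 lysine 9 methylation, and chp1, ago1, dcr1 and rdp1 of RNA interference. Each was found by its symbol in the platform annotation of an Affymetrix yeast array, each has 1 probe set, and together they are 10 of the 2899 fission yeast genes named on it. The genes were picked by function with their values in the comparison below already known, so those values are given as a description and no test of the 10 genes is read from them.

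Wild-type cells and isp7+ null cells were each hybridized to 3 arrays. The null cells lack Isp7, an enzyme of the dioxygenase family that uses 2-oxoglutarate and iron. In both groups the cells came from mid-log cultures kept at 30 degrees in Edinburgh minimal medium, with 5 g/L NH4Cl as nitrogen source, and total RNA was taken with hot phenol. Mating type, strain background and whether the null strain is 1 clone are not given in the sources used here. For isp7 itself the wild-type mean was 11.62 ± 0.073 (SD, n = 3) and the null mean 6.19 ± 0.18 (SD, n = 3), lower as the labels say. All values are log2 probe set values, and changes are isp7 null minus wild type. The background was 7.08. It was set at percentile 95 of the named probe sets that matched no fission yeast gene and were taken as those for budding yeast genes.

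In fission yeast, heterochromatin covers the centromeres, the telomeres and the silent mating-type genes. Dicer, Argonaute and an RNA-dependent RNA polymerase turn transcripts of centromeric repeats into small RNAs, which guide the methyltransferase Clr4 to the same repeats. Methylated lysine 9 of histone H3 is bound by chromodomain proteins, and one of them, Chp2, brings in SHREC, which removes acetyl groups from histones and limits access of RNA polymerase II.

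Among the 10 genes clr2 was lowest in the null relative to wild type, at 0.503 of the wild-type value, and clr4 and rdp1 followed at 0.638 and 0.653. Those 3 passed the call used for single genes, an adjusted p under 0.05 in limma with a change of at least 1.5-fold. The same call as a fall was made for 4.39% of the 2917 fission yeast probe sets and in either direction for 8.60%. No gene of the 10 passed as higher in the null. Of the 10, 7 had a lower mean in the null, where 58.3% of all probe sets did, and their median log2 change was -0.39 against -0.05 over all probe sets. The wild-type and null arrays did not overlap for 8 of the 10, where 76.1% of all probe sets did not overlap, so separated groups were common on these arrays. With the adjusted p alone the call was made for 8 of the 10 and for 70.7% of all probe sets. Without null array 1 only clr2 kept the call.

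**Figure D1:**
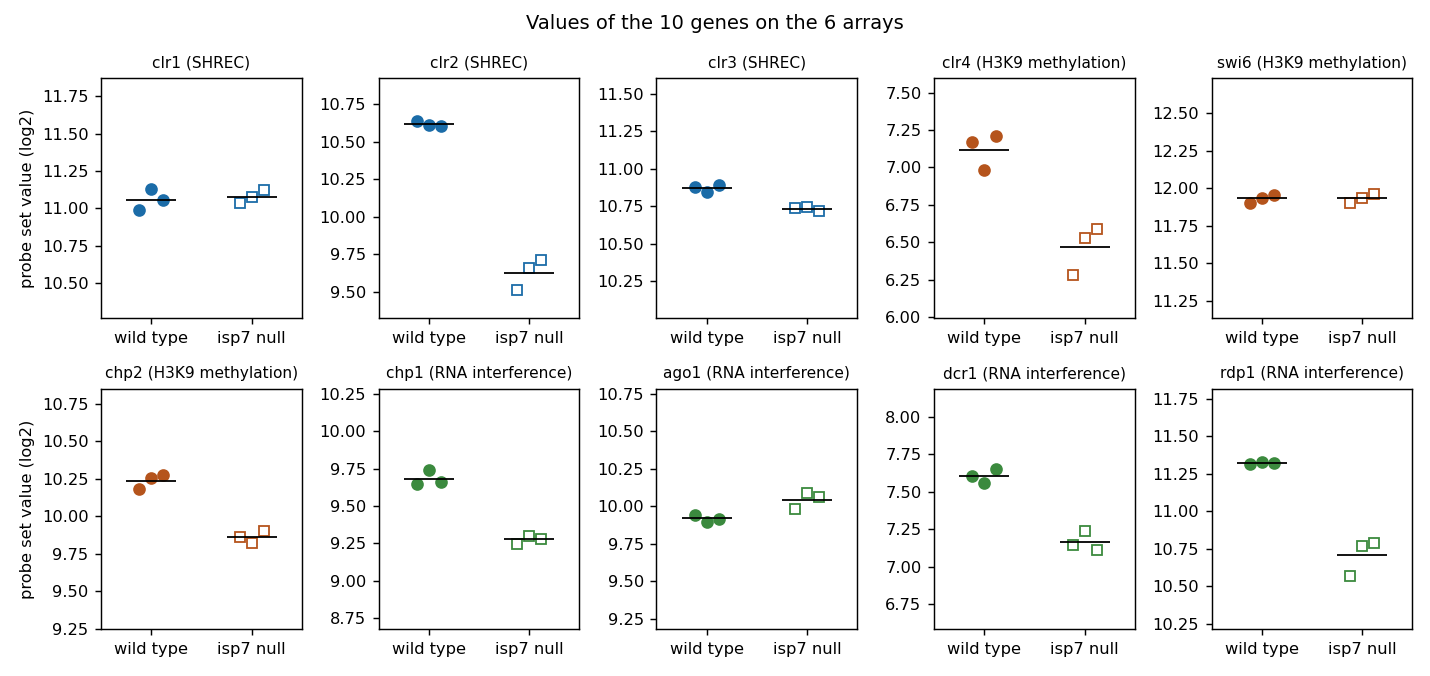
Values of the 10 genes on each array: the vertical axis of every panel is the log2 probe set value over the same span of 1.6 units, filled circles are the 3 wild-type arrays, open squares the 3 isp7 null arrays, and horizontal lines are group means. clr2 shows the widest gap, from 10.62 to 9.63, clr4 and rdp1 follow, and the groups overlap for clr1 and swi6.

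The SHREC genes did not move as a unit. Clr2 is a subunit of SHREC that, with Clr1, is needed for silencing, and its probe set (gene SPAC1B3.17) read 10.64, 10.61 and 10.60 in the wild-type arrays and 9.51, 9.66 and 9.71 in the null arrays. Every null array lay below every wild-type array. The means were 10.62 ± 0.018 (SD, n = 3) and 9.63 ± 0.11 (SD, n = 3), a log2 change of -0.99 (SE 0.052).

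Clr1 is a zinc-finger subunit of the same complex, and its gene showed no measured change. That gene (SPBC2D10.17) stood at 10.99, 11.13 and 11.05 in wild type and at 11.04, 11.08 and 11.12 in the null. The groups overlap, and the log2 change was 0.02 (SE 0.043). Clr3 is the histone deacetylase of SHREC, which acts on lysine 14 of histone H3. Its gene (SPBC800.03) read 10.88, 10.85 and 10.89 in wild type against 10.74, 10.74 and 10.72 in the null. The null arrays were lower without overlap, but the log2 change was only -0.14 (SE 0.027).

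Set against clr1 on the same arrays, the log2 change of clr2 was lower, with differences of -1.09, -0.98 and -0.97 in null arrays 1, 2 and 3 and a mean of -1.02 ± 0.068 (SD, n = 3). Adding a constant to all log2 values of an array does not alter such a difference. Against clr3 the mean difference was -0.85 ± 0.11 (SD, n = 3). Both SDs cover the null arrays only. Over the wild-type arrays the SD of the difference was 0.084 against clr1 and 0.031 against clr3. The chromatin remodeller gene mit1, whose product completes the complex with the 3 Clr proteins, had a log2 change of -0.007 (limma adjusted p = 0.891, SE 0.041). After a correction for gene length mit1 stood at 0.20 (limma adjusted p = 0.00724). Of the 4 SHREC subunit genes, clr2 was thus the one with a change of more than 1.5-fold.

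The H3K9 methylation genes ranged from no measured change to a lower value near background. Clr4 is the only known H3K9 methyltransferase of fission yeast. Its gene (SPBC428.08c) read 7.17, 6.98 and 7.21 in wild type and 6.28, 6.53 and 6.59 in the null. The groups do not overlap, but the wild-type mean of 7.12 ± 0.12 (SD, n = 3) lies just above the background of 7.08 and the null mean of 6.47 ± 0.16 (SD, n = 3) below it. The log2 change of -0.65 (SE 0.092) is therefore of a signal barely separated from the probe sets that set the background. Whether the background limited the size of the change was not tested. This change was the least precise of the 10, and it stood at -0.56 without null array 1 and at -0.44 after a correction for gene length.

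Swi6 is a homologue of heterochromatin protein 1 (HP1), which binds methylated lysine 9 of histone H3 and is an abundant structural protein of heterochromatin. Its gene (SPAC664.01c) read 11.90, 11.93 and 11.96 in the wild-type arrays and 11.90, 11.93 and 11.96 in the null arrays. The groups overlap fully, and the log2 change was 0.002 (SE 0.030), the smallest of the 10. Chp2 is the other HP1 protein and the link to SHREC. Its gene (SPBC16C6.10) stood at 10.18, 10.25 and 10.27 in wild type and at 9.86, 9.82 and 9.90 in the null, with no overlap. The log2 change was -0.37 (SE 0.037), and relative to swi6 on the same arrays it was -0.38 ± 0.036 (SD, n = 3). That SD covers the null arrays, and over the wild-type arrays the SD of the difference was 0.025. The difference within the HP1 pair was not tested.

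In the RNA interference genes, 3 were lower and the Argonaute gene was slightly higher. Rdp1 is the RNA-dependent RNA polymerase that makes double-stranded RNA from repeat transcripts. Its gene (SPAC6F12.09) read 11.32, 11.33 and 11.32 in wild type, the tightest wild-type group of the 10 (SD 0.0064), and 10.57, 10.77 and 10.79 in the null. All null arrays were lower, with array 1 the lowest, and the log2 change was -0.62 (SE 0.058), or -0.55 without null array 1.

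Dcr1, the Dicer ribonuclease, cuts that double-stranded RNA into small RNAs. Its gene (SPCC188.13c) read 7.61, 7.56 and 7.65 in wild type and 7.15, 7.24 and 7.11 in the null. The groups do not overlap, the null mean of 7.17 is close to the background, and the log2 change was -0.44 (SE 0.042). Chp1 is the chromodomain subunit of RITS, the complex that carries small RNAs to chromatin. Its gene (SPAC18G6.02c) read 9.65, 9.74 and 9.66 in wild type and 9.25, 9.30 and 9.28 in the null, again without overlap, a log2 change of -0.40 (SE 0.034).

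Ago1 is the Argonaute protein of RITS and binds the small RNAs. Its gene (SPCC736.11) stood at 9.94, 9.90 and 9.92 in wild type and at 9.98, 10.09 and 10.06 in the null. It was the only gene of the 10 whose null arrays all lay above the wild-type arrays, and its log2 change was 0.13 (SE 0.036). Within arrays, the change of rdp1 was lower than that of ago1, with differences of -0.82, -0.73 and -0.68 and a mean of -0.74 ± 0.070 (SD, n = 3). Between chp1 and ago1, which encode subunits of the same complex, the mean difference was -0.53 ± 0.031 (SD, n = 3). Both SDs cover the null arrays only. Over the wild-type arrays the SD of the difference was 0.028 for rdp1 and ago1 and 0.070 for chp1 and ago1.

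Compared by role, the spread inside each group was larger than the distance between groups. The median log2 change was -0.14 for the 3 SHREC genes, -0.37 for the 3 H3K9 methylation genes and -0.42 for the 4 RNA interference genes. Within the groups the changes spanned 1.02, 0.65 and 0.74 log2 units. Each group held a gene past 1.5-fold lower and a gene at or above its wild-type value. The median of the SHREC genes is the value of clr3, and the group's order follows from which gene stands in the middle. No test was made of the differences between the groups.

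**Figure D2:**
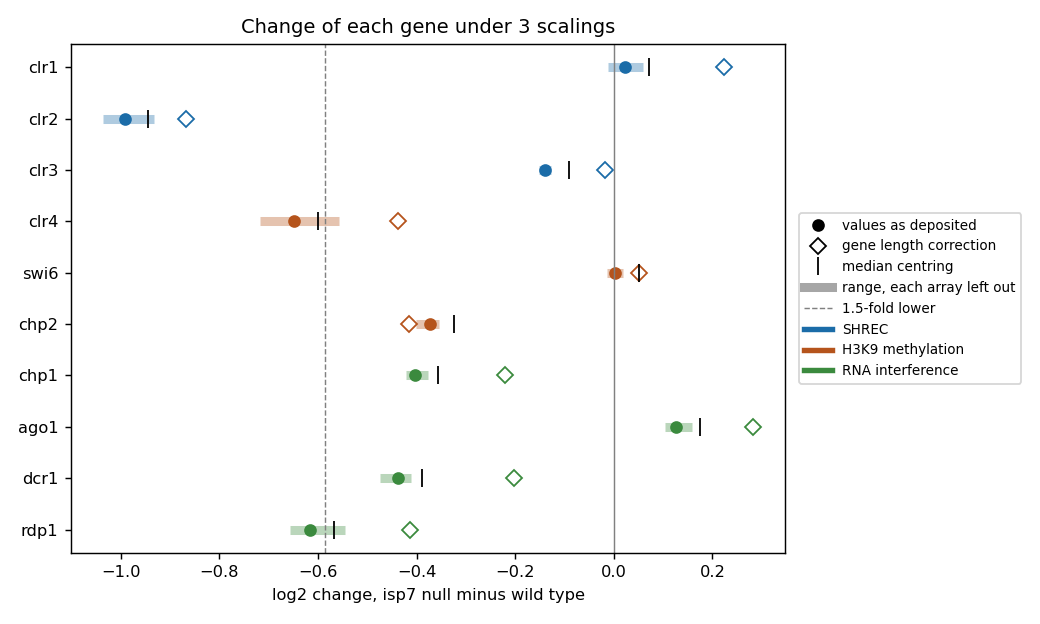
Log2 change of each gene, isp7 null minus wild type: circles are the values as deposited, diamonds the values after correction for gene length, ticks the values after centring each array on its median, and pale bars the range when each array is left out in turn. clr2 stays beyond the dashed line at 1.5-fold lower in every case. clr4 and rdp1 cross it after length correction and when null array 1 is left out, and rdp1 also after median centring.

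The arrays of the null group were not alike for these genes. Null array 1 gave the lowest of the 3 null values for 7 of the 10 genes, among them clr2, clr4 and rdp1. Over all fission yeast probe sets it was the lowest for 49.5%, and for 48.4% of those called as fallen. Whether this array's RNA or hybridization differed was not tested. Between arrays of 1 group the correlation over fission yeast probe sets was 0.998 to 0.999.

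Gene length ran with the changes and touches most of the 10 genes. Spearman's rho of change against length was -0.367 over all fission yeast probe sets, which are not independent. Of the 10 genes 8 are longer than the median of 1876 bases over all probe sets, and their median length is 3264 bases. They run from chp2 with 1250 bases to dcr1 with 5609 bases. After correction for length the median log2 change of the 10 genes was -0.21 in place of -0.39, against 0.00 over all probe sets.

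The correction acted unevenly because the genes differ in length. The change of dcr1 went from -0.44 to -0.20, that of chp1 from -0.40 to -0.22 and that of clr3 from -0.14 to -0.02. For rdp1, with 4121 bases, it went to -0.41, and for clr1, with 4046 bases, from 0.02 to 0.22. Clr2, with 2488 bases, kept a change of -0.87, and the short gene chp2 went from -0.37 to -0.42. The part of gene length in these results was not tested beyond this correction. The corrected difference between clr2 and clr1 was -1.09 and that between rdp1 and ago1 was -0.69.

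**Figure D3:**
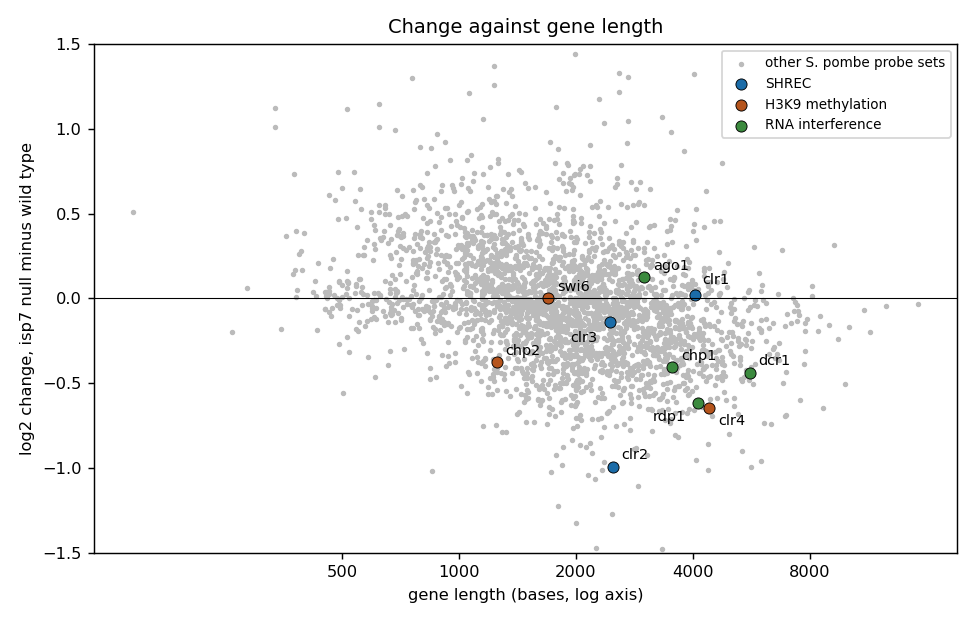
Log2 change, isp7 null minus wild type, against gene length in bases on a log axis: grey points are all fission yeast probe sets with a change within 1.5 log2 units and coloured points are the 10 genes by role. The grey cloud slopes down with length, clr2 lies below most genes of its length, and clr1 and ago1 lie in the upper part of the cloud at theirs.

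Genes of the same complexes and of linked steps were read from a list of 52 partner genes, of which 42 were measured. Of the 42, 1 fell, rik1, and none rose, where 4.39% of all probe sets fell and 4.22% rose. With the adjusted p alone 27 were lower and 6 higher, against 41.3% and 29.3% of all probe sets, and 37 of the 42 had groups that do not overlap, against 76.1%. The median log2 change of the partner genes was -0.17, and -0.06 after length correction.

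Rik1 is the scaffold of the Clr4 complex, a cullin ubiquitin ligase that holds Clr4. Its gene (SPCC11E10.08) read 10.90, 10.95 and 10.89 in wild type and 10.19, 10.31 and 10.26 in the null. All null arrays were lower, and the log2 change of -0.66 (limma adjusted p = 1.19e-05, SE 0.038) became -0.46 after length correction, short of 1.5-fold. The cullin gene cul4 had a log2 change of -0.09 (limma adjusted p = 0.0733) and raf2, a further subunit gene, one of 0.06 (limma adjusted p = 0.0637). Stc1, which connects RITS to the Clr4 complex, had a gene with a change of -0.04 (limma adjusted p = 0.478). After length correction cul4 stood at 0.05 (limma adjusted p = 0.233), raf2 at 0.16 (limma adjusted p = 0.00113) and stc1 at -0.14 (limma adjusted p = 0.0250).

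The gene of Epe1, a JmjC-domain protein that counters the spread of heterochromatin, was lower by a log2 change of -0.29 (limma adjusted p = 0.00182, SE 0.051). After length correction that change was -0.09. Among the histone methyltransferase and demethylase genes of the list, set2 stood just short of the 1.5-fold threshold with a log2 change of -0.58 (limma adjusted p = 8.74e-06, SE 0.030). Set2 methylates lysine 36 of histone H3. Leaving out wild-type array 1, null array 2 or null array 3 took it to -0.59 and past the threshold. Other settings moved set2 away from the threshold. Its log2 change was -0.43 after length correction, -0.53 after median centring and -0.56 without null array 1.

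Of the 14 measured deacetylase genes and their complex partners none passed 1.5-fold, where 8.60% of all probe sets were called in either direction. The lowest was hst4, a sirtuin gene, with a log2 change of -0.51 (limma adjusted p = 6.54e-05), and the highest sds3, of the Clr6 complex, with 0.30 (limma adjusted p = 0.000444). Clr6 and Sir2 are deacetylases with a known part in heterochromatin. The log2 change was -0.09 for clr6 (limma adjusted p = 0.0814) and -0.20 for sir2 (limma adjusted p = 0.00408). After length correction clr6 stood at 0.01 (limma adjusted p = 0.815) and sir2 at -0.08 (limma adjusted p = 0.113).

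The genes of small RNA cofactors stood on both sides of wild type. The gene of Tas3, which joins Chp1 to Ago1 in RITS, read 9.90, 9.72 and 9.81 in wild type and 9.16, 9.37 and 9.40 in the null, for a log2 change of -0.51 (limma adjusted p = 0.000653, SE 0.073). RITS thus had lower chp1 and tas3 values with ago1 at 0.13. Rdp1 works with the helicase Hrr1 and the nucleotidyltransferase Cid12, and their genes had changes of -0.24 (SE 0.038) and -0.32 (SE 0.056), both smaller than that of rdp1. After length correction hrr1 stood at -0.03 and cid12 at -0.11, while rdp1 stood at -0.41.

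Arb1 and Arb2 hold Ago1 in a separate complex, in which the small RNA duplex is kept before it is unwound. Both genes were higher, as was ago1. The log2 change was 0.23 for arb1 (limma adjusted p = 0.000961, SE 0.037) and 0.33 for arb2 (limma adjusted p = 0.00971, SE 0.083). The values of arb1 were 11.78, 11.75 and 11.78 in wild type and 11.93, 12.01 and 12.06 in the null, without overlap. None of the 3 genes reached 1.5-fold, and all 3 stayed above wild type after length correction, at 0.28 for ago1, 0.27 for arb1 and 0.30 for arb2.

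In RNA elimination, where meiotic transcripts are removed from growing cells, the gene of the RNA-binding protein Mmi1 had a log2 change of -0.37 (limma adjusted p = 2.62e-05, SE 0.027). The gene of Red1, which works with Mmi1, had one of -0.28 (limma adjusted p = 0.00263). Both were smaller after length correction, at -0.22 and -0.13.

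**Figure D4:**
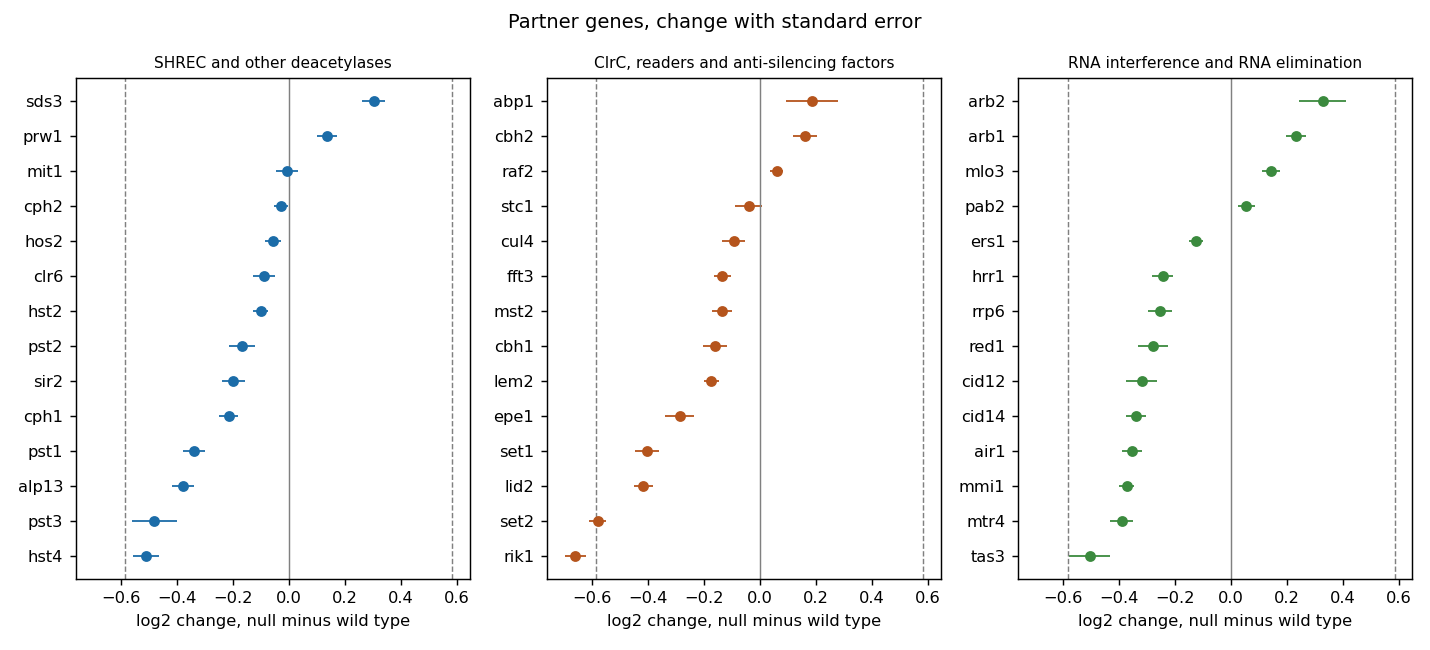
Log2 change, isp7 null minus wild type, of the 42 measured partner genes in 3 panels by list: points are changes, bars are standard errors of the limma fit, and dashed lines mark 1.5-fold. rik1 at -0.66 is the only point outside the dashed lines, and arb1, arb2 and sds3 lie to the right.

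Of 13 measured genes listed as Mmi1 targets, 1 rose and 1 fell, where 8.60% of all probe sets did either, and their median log2 change was -0.001. Only 11 of the 13 were above the background of 7.08, and several of those lay close to it. Wild-type means were 7.14 for ssm4, 7.21 for mek1 and 7.24 for mug9, whose change is the median. Values near background are compressed, so this median cannot tell whether the targets changed. The rise was that of rec10, a gene of the meiotic chromosome axis, which read 8.75, 8.49 and 8.56 in wild type and 9.33, 9.19 and 9.24 in the null (log2 change 0.66, SE 0.070, limma adjusted p = 0.000142). The fall was that of mug8 (-1.27, SE 0.22, limma adjusted p = 0.00161). The gene of the meiotic transcription factor Mei4, a much-used Mmi1 target, had a change of -0.10 (limma adjusted p = 0.396).

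The outermost 30 protein-coding genes at each end of chromosomes I and II made a list of 120 genes, of which 18 were measured. All 18 have gene names, and no listed gene with only a systematic name was measured. The counts thus describe named genes and not the chromosome ends as a whole. Of the 18 genes 6 rose and 2 fell, where 4.22% of all probe sets rose and 4.39% fell. Their median log2 change was 0.04. The rises were those of say1 (2.51), str3 (2.36), gal7 (1.66), put4 (1.44), cao2 (1.22) and gal10 (0.98), and the falls those of cat1 (-1.01) and dak2 (-0.88). Several of them encode transporters or sugar enzymes and stand in gene clusters, so they are not independent of each other. The helicase gene tlh2, a textbook marker of subtelomeric silencing, has 4 probe sets, all with means below background in both groups. The brightest of them had means of 6.89 (wild type) and 6.93 (null, log2 change 0.04, limma adjusted p = 0.856). A further tlh2 probe set went from 6.86 to 5.90, a log2 change of -0.96 (limma adjusted p = 1.87e-05, SE 0.063) below background. That set alone would pass as a fall, but the counts of chromosome end genes use the brightest set. The remaining tlh2 probe sets had changes of -0.13 (limma adjusted p = 0.241) and -0.20 (limma adjusted p = 0.0759). Genes of the subtelomeric helicase family share sequence, so their probe sets cannot be told apart with certainty. Transcripts of centromeric repeats were not analysed here.

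The gene next to clr2 changed more than any of the 10 genes. By the order of genes in the RefSeq table, the nearest protein-coding gene before clr2 is vht1, which encodes the biotin transporter. It read 13.97, 14.03 and 13.99 in wild type and 11.69, 11.62 and 11.61 in the null, for a log2 change of -2.35 (limma adjusted p = 8.75e-08, SE 0.033). The annotated spans of clr2 and vht1 do not overlap. The gene on the other side of clr2, mrps18 of the mitochondrial ribosome, had a change of -0.01 (limma adjusted p = 0.787).

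Of the 20 nearest protein-coding neighbours of the 10 genes 16 were measured, and 2 fell and 1 rose, where 4.39% and 4.22% of all probe sets did. Their median log2 change was -0.009. The other fall was that of ade3, a purine synthesis gene next to rdp1, with a change of -0.64 (limma adjusted p = 4.89e-06, SE 0.027) beside -0.62 for rdp1. The rise was that of mhf1, whose annotated span partly overlaps clr1, with a change of 0.66 (limma adjusted p = 1.12e-05, SE 0.037) beside 0.02 for clr1. Overlaps were also annotated for clr4 with meu6 (log2 change -0.29, limma adjusted p = 0.00477) and for dcr1 with spn6 (0.22, limma adjusted p = 0.145). Where the probes of these sets lie is not given in the sources used here, so values of overlapping genes are uncertain.

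**Figure D5:**
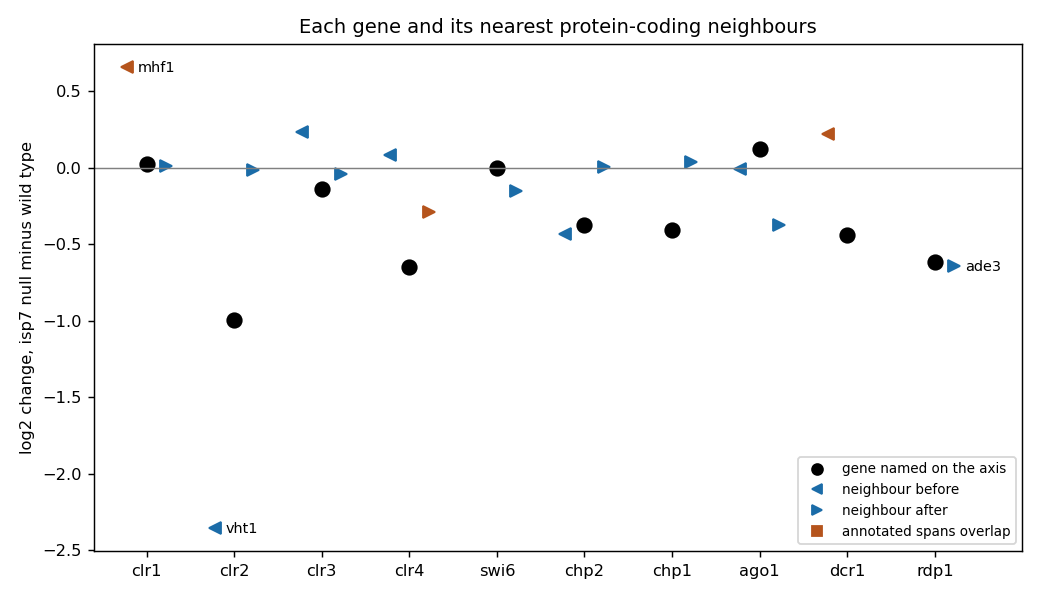
Log2 change, isp7 null minus wild type, of each of the 10 genes (black circles) and of its nearest protein-coding gene before (left triangles) and after it (right triangles) by gene order, with overlapping annotated spans in orange. vht1 at -2.35 beside clr2, ade3 at -0.64 beside rdp1 and mhf1 at 0.66 beside clr1 are the neighbours past 1.5-fold.

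The fission yeast genes whose pattern over the 6 arrays was most like that of clr2 were lys1, sti1 and jmj4. Likeness was the root mean square distance between values centred on each gene's wild-type mean, and it was 0.049, 0.067 and 0.073 log2 units over 6 arrays. lys1 encodes an enzyme of lysine synthesis, sti1 a co-chaperone of Hsp90 and jmj4 a JmjC-domain protein. Their log2 changes were -1.01, -1.06 and -1.02, beside -0.99 for clr2. Similar changes follow from the way these genes were selected.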

How the data were processed

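The 6 arrays comprised 3 per group. The deposited log2 values, 1 per probe set and array, were made by the authors with RMA in Partek 6.5, per the submitters' processing notes. RMA corrects background, equalizes the arrays' distributions and summarizes probes. It compresses differences near background and saturation and hides any change in RNA per cell. Of 10928 probe sets, 2917 matched a fission yeast gene through gene IDs in the RefSeq table of assembly ASM294v3, 3 of them by symbol. That table gave names, gene lengths and gene order. The array's genome build is not given in the sources used here, so coordinates are left out. No read depth exists for arrays, and their number limits precision.

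The comparison was fitted to all 2917 probe sets with limma 3.58.1 in R 4.3.3 (lmFit, eBayes), two-sided, with Benjamini-Hochberg adjustment, and the fitting code was tested on simulated data. A gene is said to have risen or fallen with an adjusted p under 0.05 and at least 1.5-fold, thresholds of the series' design text. Nothing in the labels says that replicates were separate cultures, and p-values then reflect only array-to-array spread, which may be technical. Errors are SD of arrays or SE of the fit.

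The genes, the lists and the rule for named genes were chosen with earlier results of these data known. The rule names all 10 genes, isp7, mit1, clr6, sir2, rik1, raf2, stc1, epe1, tas3, hrr1, cid12, arb1, arb2, mmi1 and red1 whatever their values, up to 5 further called partner genes per list, up to 8 called genes at chromosome ends, up to 5 called Mmi1 targets, and the 3 genes most like the one that changed most. A further gene in the rule is not reported here. Chosen after their values were seen were set2, hst4, sds3, cul4, mei4, tlh2 and the neighbouring genes. The pairs compared within arrays are not named in the rule and were chosen with the genes' values known. A gene with several probe sets is given by the one with the highest mean. Alternatives were other variance priors, a replicate block, repeated quantile normalization, median centring, a background filter, all probe sets, averaging per gene, other thresholds, a lowess correction for gene length and leaving out each array.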

Additional observations from a re-analysis of the deposited data

How the results depend on the processing

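All counts use the adjusted p and 1.5-fold unless named. Over all probe sets 251 were called (123 rose, 128 fell), 242 to 273 with each array left out, 49 at 2-fold and 2061 with the adjusted p alone. Median centring gave 154 rises and 94 falls, quantile normalization repeated over fission yeast probe sets 144 and 104, and the length correction 131 and 73. Of the 10 genes 3 were called, 1 to 3 with each array left out, 1 after the length correction, 0 at 2-fold and 8 with the adjusted p alone. The count of 1 came without null array 1 and was clr2. The called partner genes numbered 1 in the reported analysis, 1 to 2 with each array left out, 0 after the length correction, 0 at 2-fold and 33 with the adjusted p alone. The second was set2. Called Mmi1 targets numbered 2, with 2 to 3 over the arrays left out, 1 at 2-fold and 8 with the adjusted p alone. Called chromosome end genes numbered 8, also with each array left out, 9 after the length correction, 6 at 2-fold and 12 with the adjusted p alone.

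The median log2 change of the SHREC genes was -0.14, with -0.15 to -0.13 over the arrays left out, -0.018 after the length correction, -0.091 when median-centred and -0.079 when quantile-normalized again. That of the H3K9 methylation genes was -0.37, with -0.40 to -0.35 over the arrays left out, -0.42 after the length correction, -0.33 when median-centred, -0.31 when quantile-normalized again and -0.19 with the background filter, which removes clr4. That of the RNA interference genes was -0.42, with -0.44 to -0.41 over the arrays left out, -0.21 after the length correction and -0.37 with median centring. No called gene among those named reversed its direction in these settings.

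The replicate numbers did not pair the arrays: deviations of same-numbered arrays correlated at -0.12, -0.25 and 0.11, and not every array correlated best with its own number. With the replicate number as a block, 252 probe sets, 3 of the 10 genes and 1 partner gene were called.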
